A study of Mus musculus with 24 samples.

Results

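The carboxylesterases (Ces) are hydrolases of the endoplasmic reticulum, or in a few cases of the plasma, that cleave esters, amides and thioesters. In liver they activate or inactivate ester drugs and are known for turning over triacylglycerol, cholesteryl esters and retinyl esters. Rodents carry many copies of these genes in tandem arrays, where primates have few, and NRF2 is known as one of several factors that act on some of them. The genes described here are 10 liver carboxylesterases chosen by symbol: Ces1b, Ces1c, Ces1d, Ces1e, Ces1f, Ces1g, Ces2a, Ces2e, Ces3a and Ces3b. They are 10 of the 15160 genes with counts, and all 10 passed the filter on low counts.

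RNA was sequenced from the livers of male mice with floxed Nfe2l2 alleles, the gene that encodes NRF2, and the labels give an age of 5 months. WT mice (NRF2fl/fl) carried the floxed alleles without Cre, and NRF2 KO mice (NRF2fl/(alb)) carried in addition a Cre recombinase under the albumin promoter, which acts in hepatocytes and leaves the gene in the other cells of the liver. Mice of each genotype ate an elemental diet with 0.86% methionine (Con) or with methionine restricted to 0.17% (MR) from 8 weeks of age for 8 weeks. For its experiment of 8 weeks the study describes calorimetry and a time back in the home cage before killing. The mice were killed after a fast of 4 h. The groups were WT Con (n = 5), WT MR (n = 5), NRF2 KO Con (n = 6) and NRF2 KO MR (n = 6), without the WT_CON_7604 and WT_MR_7612 mice that the study set aside. Each mouse gave 1 library of 3′ end reads with 6197291 to 22068338 counts (median 15019792), of which the 10 carboxylesterases took 0.310 to 0.484%. The raw count of a single carboxylesterase in a single mouse ran from 44 (Ces1b) to 50032 (Ces1c). Levels are counts scaled to a common library size (CPM), and because the reads come from the 3′ end a level is compared between mice and not between genes.

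One library has to be named first. With PCR primers for the deleted part, the study reported less Nfe2l2 mRNA in NRF2 KO livers. Where the 3′ reads of Nfe2l2 lie relative to the deleted part of the gene was not examined, so its counts are no check of the deletion. They were higher in the NRF2 KO mice (202 to 339 CPM in 12 mice) than in 11 of the 12 WT mice (94.0 to 125 CPM). The library labelled WT_CON_7607 had 324 CPM, within the NRF2 KO range. Where results of the carboxylesterases rest on it, most are given with and without it. Hepatocyte markers were abundant in every mouse (Alb, Ttr, Apoa1, Cps1 and Hnf4a, summed to 70433 to 121982 CPM). In whole liver, fewer cells of a type and less RNA per cell cannot be told apart.

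The genes lie in 2 arrays on chromosome 8 (GRCm38). The Ces1 genes are on the minus strand between 93056728 and 93337308, in the order Ces1b, Ces1c, Ces1d, Ces1e, Ces1f and Ces1g, and the Ces2 and Ces3 genes are on the plus strand between 104734003 and 105093929. The copies are alike enough to matter for counting. Of all 50-base stretches in the last 400 bases of the transcript, 29.3% in Ces1b also occur in Ces1c, 31.9% in Ces1c occur in Ces1b, 25.9% in Ces3a occur in Ces3b, and 12.8% in Ces2a occur in Ces2b, Ces2e or the predicted gene Gm7208. None of the stretches of Ces1d, Ces1e, Ces1f, Ces1g, Ces2e or Ces3b was found in another transcript.

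The promoters of Ces1b and Ces1c are shown first because these neighbours are much alike there and 1 of them, Ces1b, was called by genotype. RefSeq gives promoter windows (GRCm38.p6, 250 bases before to 50 after the start) for 7 of the 10 genes and 8 starts. In a local alignment the Ces1b window at chr8:93079891-93080190 (minus strand) and the Ces1c window at chr8:93131234-93131533 (minus strand) shared 253 of 297 aligned positions (85.2%), more positions than any other pair of these genes. Capitals mark the 47 bases of each window without an identical partner in the other.
Ces1b: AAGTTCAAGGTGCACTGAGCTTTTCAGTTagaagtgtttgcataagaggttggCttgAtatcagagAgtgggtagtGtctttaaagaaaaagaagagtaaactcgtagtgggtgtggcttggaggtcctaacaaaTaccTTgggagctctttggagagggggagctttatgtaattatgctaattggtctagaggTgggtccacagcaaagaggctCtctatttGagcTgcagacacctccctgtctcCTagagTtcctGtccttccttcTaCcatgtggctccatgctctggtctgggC
Ces1c: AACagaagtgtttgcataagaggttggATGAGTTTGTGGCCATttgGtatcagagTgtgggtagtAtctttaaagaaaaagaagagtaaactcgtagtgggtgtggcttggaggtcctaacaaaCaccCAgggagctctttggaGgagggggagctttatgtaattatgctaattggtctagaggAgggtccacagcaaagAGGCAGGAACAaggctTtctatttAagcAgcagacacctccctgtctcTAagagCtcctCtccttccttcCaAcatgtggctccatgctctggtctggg
The promoters of Ces1g (chr8:93337160-93337459, minus strand) and Ces2e (chr8:104926010-104926309, plus strand) are shown because one gene of each array that was lower in NRF2 KO mice has a window. Capitals mark the letters of a C/EBP site (TTGCNNAA on either strand).
Ces1g: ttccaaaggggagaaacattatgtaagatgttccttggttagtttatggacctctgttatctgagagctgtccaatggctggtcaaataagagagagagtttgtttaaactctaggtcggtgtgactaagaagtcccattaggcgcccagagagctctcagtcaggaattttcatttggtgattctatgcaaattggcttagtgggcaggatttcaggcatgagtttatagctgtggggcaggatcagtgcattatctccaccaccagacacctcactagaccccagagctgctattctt
Ces2e: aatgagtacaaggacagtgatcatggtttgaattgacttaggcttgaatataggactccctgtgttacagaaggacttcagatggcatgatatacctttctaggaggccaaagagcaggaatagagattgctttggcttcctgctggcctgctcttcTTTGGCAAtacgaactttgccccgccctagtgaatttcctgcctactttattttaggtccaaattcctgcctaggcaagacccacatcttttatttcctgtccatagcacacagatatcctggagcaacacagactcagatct
The core letters of the antioxidant response element, the DNA sequence that NRF2 is known to bind, were searched as TGACNNNGC on both strands. They were found in none of the 8 windows and in 12.4% of 32817 RefSeq mouse promoter windows of the same length, which says only that these letters are not in these windows. The C/EBP letters were found in both Ces1b windows and in those of Ces1c, Ces2a and Ces2e, against 10.8% of all windows. The Ces1b windows overlap and hold the same site, and the Ces1c site lies in the part shared with Ces1b. These windows are therefore not separate cases to set against that share. The nuclear receptor letters AGGTCA occurred in the Ces2a window alone (16.3% of all), and neither the letters of an HNF1 site (0.399% of all) nor the amino acid response letters TTGCATCA (0.896% of all) occurred in any of them.

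**Figure D1:**
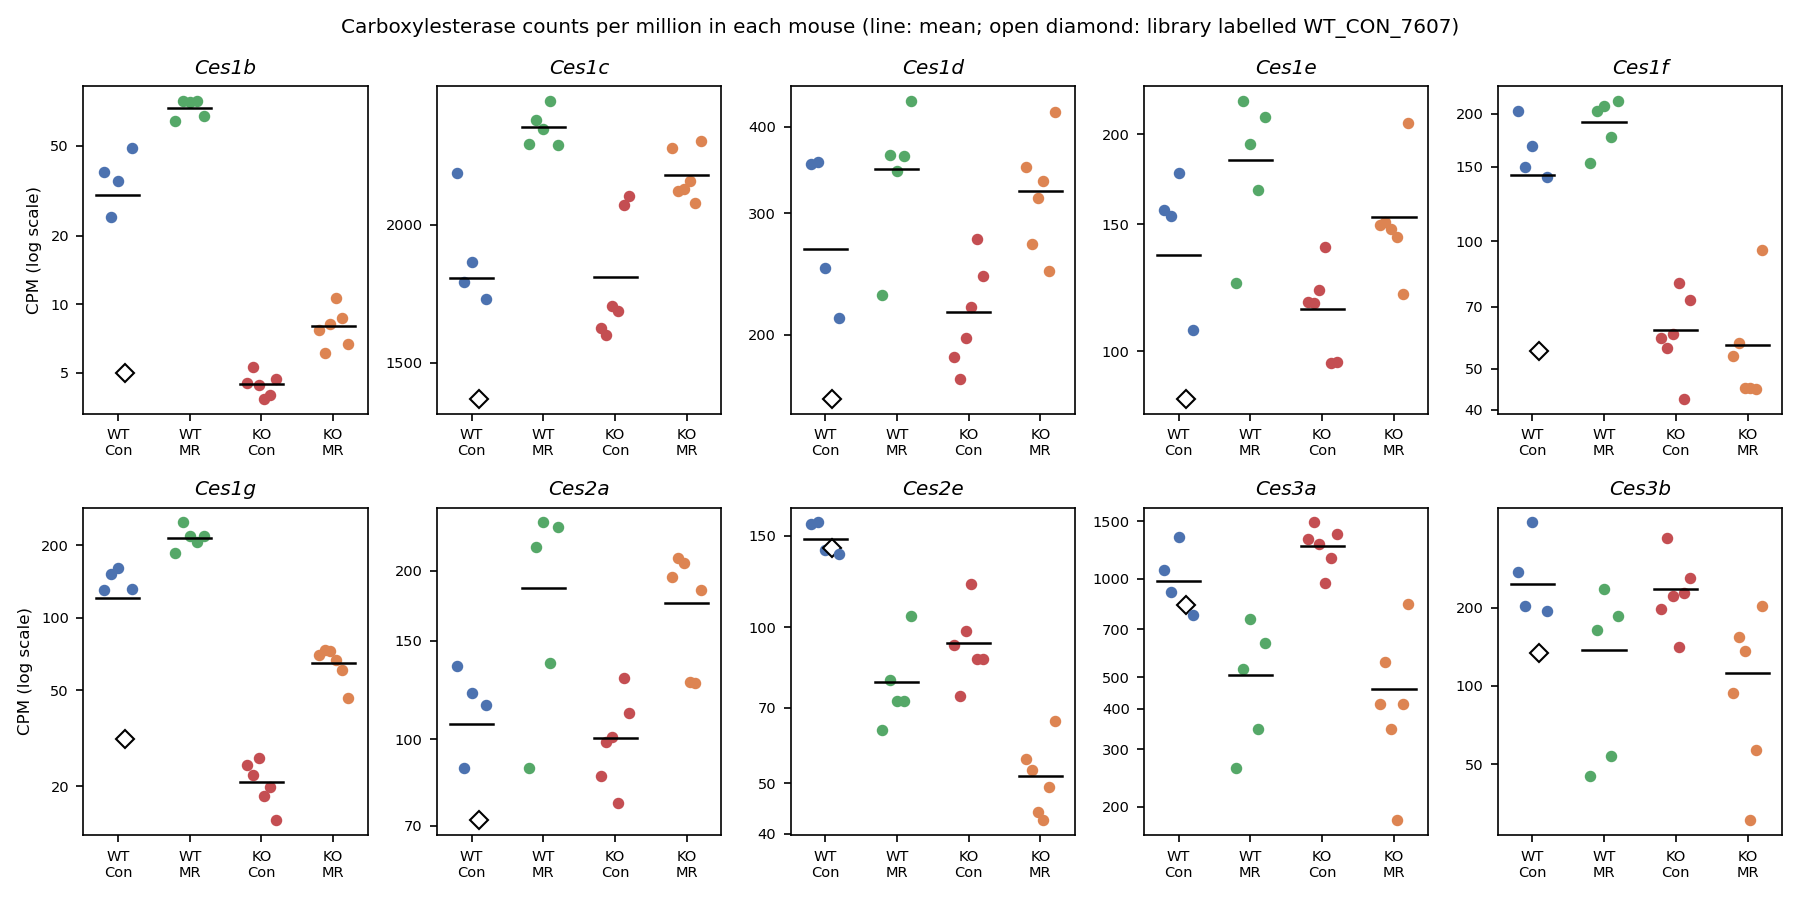
CPM of each carboxylesterase (log axis) in each of 22 mice, by genotype and diet, with the group mean as a line and the library labelled WT_CON_7607 as an open diamond. Ces1b, Ces1f and Ces1g sat far lower in NRF2 KO mice, and the open diamond lay among or near the NRF2 KO mice for these genes but among the WT Con mice for Ces2e.

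The comparison of genotypes asks which carboxylesterases differed between NRF2 KO and WT mice on each diet. Ces1b, Ces1f, Ces1g and Ces2e were lower in NRF2 KO than in WT mice on the Con diet and on the MR diet, and the other 6 did not pass the test on either. Thus 4 of 10 were lower on Con, where 1.27% of all genes tested were called lower (2.07% in either direction), and 4 of 10 on MR, where 1.38% were (1.93% in either direction). No carboxylesterase was called higher in NRF2 KO mice. A call is a Benjamini-Hochberg adjusted p under 0.05 in edgeR's quasi-likelihood test over 13336 genes, and fold changes are on the log2 scale with the 95% interval. The median log2 fold change of the 10 genes was -0.28 on each diet, and that of all genes was -0.0037 on Con and 0.0047 on MR.

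Ces1b, a little characterised member of the Ces1 group, had the largest fold difference of the family by genotype. On Con it stood at 24.2, 35.0, 38.2 and 48.7 CPM in 4 WT mice and at 4.98 CPM in the library labelled WT_CON_7607. NRF2 KO mice ran from 3.84 to 5.28 CPM (median 4.45). Apart from that library the groups did not overlap. The log2 fold change was -2.77 (-3.49 to -2.05, adjusted p = 3.1e-04), and -3.04 (-3.36 to -2.71) without the library. On MR the WT mice had 64.0, 67.4, 78.1, 78.3 and 78.5 CPM and the NRF2 KO mice 6.10 to 10.6 CPM (median 7.93), a log2 fold change of -3.18 (-3.87 to -2.49, adjusted p = 9.2e-06) with no overlap.

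Its neighbour Ces1c, the carboxylesterase secreted into mouse plasma, gave no such difference. Ces1c had 1792 ± 301 CPM (SD, n = 5) in WT Con and 1795 ± 242 CPM (n = 6) in NRF2 KO Con, with a log2 fold change of 0.0024 and an interval of -0.20 to 0.21. On MR the value was -0.14 (-0.35 to 0.06). Since these 2 genes can share reads, the Ces1b count was also set against that of Ces1c in each mouse. It was 0.192 to 0.332% of the Ces1c count in NRF2 KO Con mice and 0.282 to 0.484% in NRF2 KO MR mice, and 2.70 to 3.19% in WT MR mice. In WT Con mice it was 0.358 to 2.85%, the lowest value being that of the library labelled WT_CON_7607. The part of shared reads in the low Ces1b counts was not tested.

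Ces1g, a lipid-metabolising esterase related to human CES1, was also far lower in NRF2 KO mice. On Con it had 130.1, 132, 152 and 161 CPM in 4 WT mice, 31.4 CPM in the library labelled WT_CON_7607, and 14.4 to 26.2 CPM (median 21.0) in NRF2 KO mice. Even that library lay above every NRF2 KO Con mouse. The log2 fold change was -2.54 (-3.11 to -1.96, adjusted p = 7.8e-05) and -2.78 (-3.06 to -2.49) without it. On MR the WT mice had 185, 207, 218, 218 and 249 CPM and the NRF2 KO mice 46.6 to 73.5 CPM (median 68.7), with a log2 fold change of -1.73 (-2.28 to -1.17, adjusted p = 7.8e-04) and no overlap.

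Ces1f, a triacylglycerol hydrolase close to Ces1d, was the third of the Ces1 group to be called. On Con it had 142, 149.9, 168 and 203 CPM in 4 WT mice, 55.2 CPM in the library labelled WT_CON_7607 and 42.5 to 79.8 CPM (median 59.8) in NRF2 KO mice, with a log2 fold change of -1.22 (-1.75 to -0.69, adjusted p = 0.012). Without that library it was -1.42 (-1.82 to -1.02). On MR the WT mice had 153, 176, 203, 208 and 214 CPM and the NRF2 KO mice 44.9 to 95.1 CPM (median 49.3), and the log2 fold change was -1.75 (-2.28 to -1.21, adjusted p = 4.2e-04) with no overlap.

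Ces2e, one of the mouse relatives of human CES2, showed a smaller difference on both diets. On Con the WT mice had 138, 141, 142, 158 and 159 CPM, the library labelled WT_CON_7607 among them at 142, and the NRF2 KO mice had 73.7 to 121 CPM (median 89.7). The groups did not overlap and the log2 fold change was -0.66 (-0.92 to -0.41, adjusted p = 0.0043). On MR the WT mice had 63.5, 72.03, 72.2, 79.1 and 105 CPM and the NRF2 KO mice 42.5 to 65.9 CPM (median 51.1), which overlapped, with a log2 fold change of -0.60 (-0.86 to -0.34, adjusted p = 0.0081). Over all 24 mice the value on MR was -0.52 and missed the threshold (adjusted p = 0.051).

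**Figure D2:**
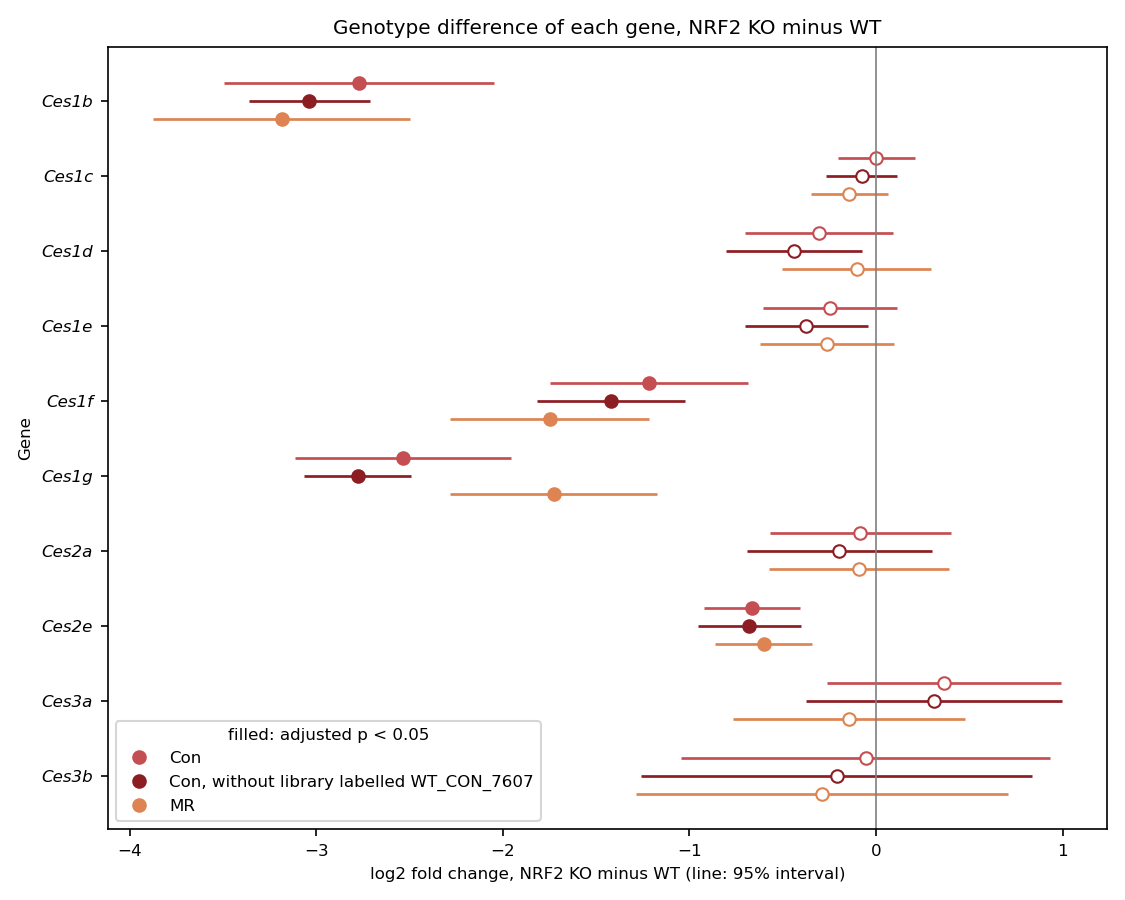
Log2 fold change of NRF2 KO against WT for each gene on Con, on Con without the library labelled WT_CON_7607, and on MR, with 95% intervals; filled points have an adjusted p under 0.05. The 4 genes with filled points run from -3.18 (Ces1b on MR) to -0.60 (Ces2e on MR), and the intervals of the other 6 genes on Con with all 22 mice and on MR include 0.

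Between NRF2 KO and WT mice 2 of the 10 genes did not overlap on Con (Ces1g and Ces2e), where 1.83% of all genes did not, and 3 did not overlap on MR (Ces1b, Ces1f and Ces1g), where 4.6% did not. Leaving out each of the 22 mice in turn kept all 4 calls on both diets. Of the 6 genes that did not pass, Ces1d, the triacylglycerol hydrolase that mobilises stored fat, had log2 fold changes of -0.30 (-0.70 to 0.09) on Con and -0.10 (-0.50 to 0.29) on MR. Ces1e, known as egasyn for its binding of β-glucuronidase in the endoplasmic reticulum, had -0.25 (-0.61 to 0.11) and -0.26 (-0.62 to 0.09). Without the library labelled WT_CON_7607 the Con values were -0.44 (-0.80 to -0.07, adjusted p = 0.23) for Ces1d and -0.37 (-0.70 to -0.04, adjusted p = 0.26) for Ces1e. Those intervals leave out 0, but neither gene was called. For Ces2a the intervals were -0.57 to 0.40 and -0.57 to 0.39. Ces3a and Ces3b had wide intervals, up to -1.28 to 0.71 for Ces3b on MR.

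Genes of the circadian clock moved with the genotype and with the diet. They are given here because liver expression of many genes follows the time of day. A score from 15 clock genes, the mean z value of 10 genes of the Dbp, Per and Nr1d arm less that of 5 genes of the Arntl arm, ran from -3.91 to -0.787 in WT Con mice and from 0.348 to 1.05 in NRF2 KO Con mice, without overlap. It ran from -1.40 to 0.898 in WT MR and from 0.894 to 1.33 in NRF2 KO MR mice. From Con to MR its median went from -1.83 to 0.0211 in WT mice and from 0.66 to 1.14 in NRF2 KO mice. When this score, which was chosen after seeing the data, was added to the model, 0 of the 10 genes and 10 of all genes (0.075%) were called by genotype on Con, although 4 of the 10 genes were called without it. The log2 fold changes of Ces1b and Ces1g on Con were -2.79 and -2.54 in that fit, close to those without the score, with wider errors (adjusted p = 0.063 and 0.053). Those of Ces1f and Ces2e were smaller, at -0.74 and -0.49 (adjusted p = 0.46 and 0.33). When the library labelled WT_CON_7607 was left out as well, Ces1b (-3.11, adjusted p = 1.8e-07) and Ces1g (-2.87, adjusted p = 2.2e-07) were called on Con, where 0.283% of all genes were, and Ces1f (-1.01, adjusted p = 0.22) and Ces2e (-0.52, adjusted p = 0.37) were not. On MR, Ces1b (-3.19), Ces1f (-1.54) and Ces1g (-1.73) were called with the score (1.1% of all genes were) and Ces2e (-0.53, adjusted p = 0.096) was not. The time of killing is not among the labels. On Con, where the scores of the genotypes did not overlap, clock and genotype cannot be told apart. On MR the scores overlapped only in that WT_MR_7609 (0.898) lay just above KO_MR_7631 (0.8935). Clock and genotype are therefore poorly separated on MR too, also in the fit with the score. For MR in WT mice the fit with the score called 3 of the 10 genes and 1109 of all genes (8.32%). Without the score these were 5 and 1843 (13.8%).

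**Figure D3:**
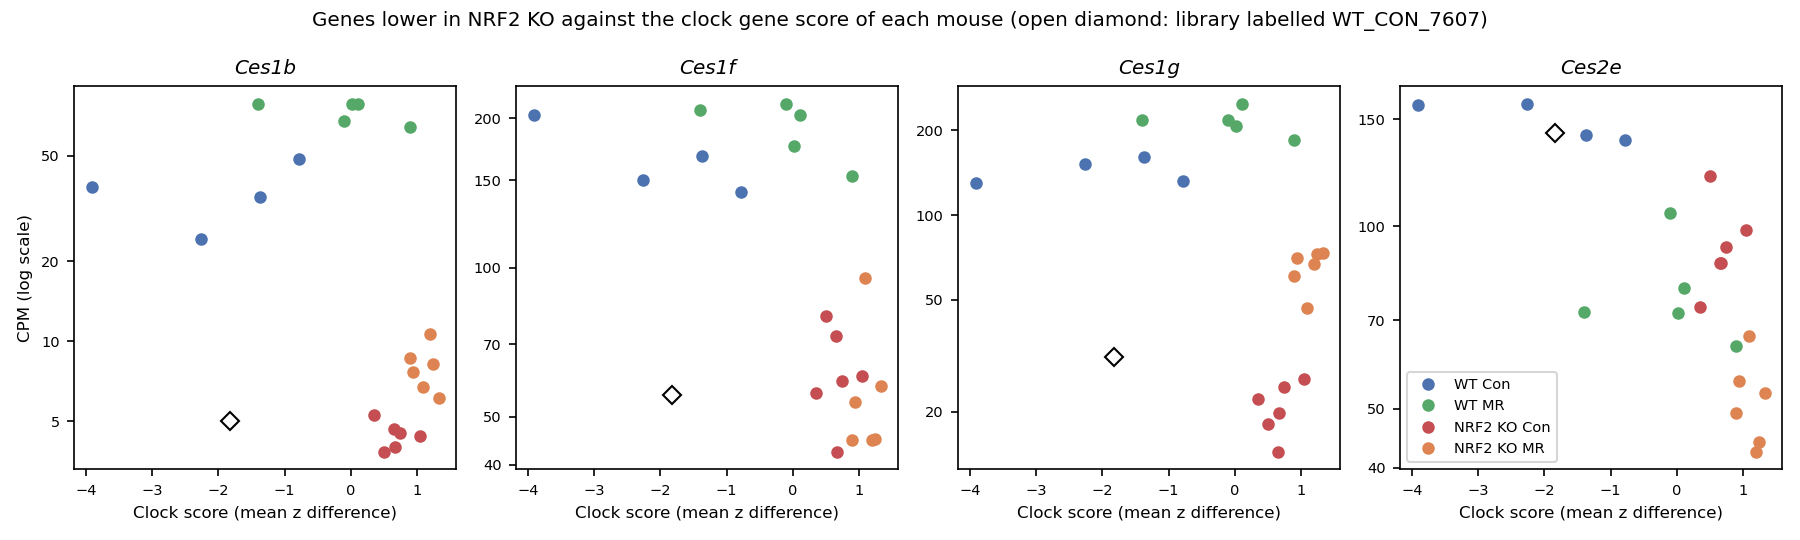
CPM (log axis) of the 4 genes lower in NRF2 KO mice against the clock score of each mouse (difference of mean z values), coloured by group, with the library labelled WT_CON_7607 as an open diamond. The NRF2 KO mice lie between 0.348 and 1.33 on the score and most WT mice lower, while the library labelled WT_CON_7607 has a score within the WT Con range and levels of Ces1b, Ces1f and Ces1g near the NRF2 KO mice.

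The comparison of diets asks what methionine restriction did to these genes with and without hepatocyte NRF2. On MR, members of the Ces1 group and Ces2a were higher and Ces2e and Ces3a were lower, so the Ces2 and Ces3 array moved in both directions. In WT mice 3 genes rose (Ces1b, Ces1c and Ces2a; 6.91% of all genes tested rose) and 2 fell (Ces2e and Ces3a; 6.91% fell), together 5 of 10 where 13.8% of all genes were called. In NRF2 KO mice 4 rose (Ces1c, Ces1d, Ces1g and Ces2a; 6.23% of all genes) and 2 fell (Ces2e and Ces3a; 6.34%), together 6 of 10 where 12.6% of all genes were called. The median log2 fold change of the 10 genes was 0.42 in WT and 0.36 in NRF2 KO mice. The summed level of the 10 genes was 3974 ± 771 CPM in WT Con, 4369 ± 494 CPM in WT MR (n = 5 each), 3909 ± 333 CPM in NRF2 KO Con and 3624 ± 465 CPM in NRF2 KO MR (n = 6 each), and these ranges overlapped.

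Ces2e gave the firmest diet difference. It fell by 0.92 on the log2 scale in WT mice (-1.19 to -0.64, adjusted p = 8.5e-05) and by 0.85 in NRF2 KO mice (-1.10 to -0.60, adjusted p = 9.1e-05), with no overlap between the diets in either genotype, and all 22 fits without 1 mouse kept both calls. It was the 1 gene of the family called lower both on MR and in NRF2 KO mice, and its lowest levels, 42.5 to 65.9 CPM, were those of NRF2 KO MR mice.

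Ces1g rose most in NRF2 KO mice. There it went from 14.4 to 26.2 CPM on Con to 46.6 to 73.5 CPM on MR, a log2 fold change of 1.64 (1.09 to 2.19, adjusted p = 5.9e-04) without overlap. In WT mice the log2 fold change was 0.83 (0.25 to 1.41) and just missed the threshold (adjusted p = 0.051), although every WT MR mouse (185 CPM or more) lay above every WT Con mouse (161 CPM or less). Without the library labelled WT_CON_7607 the WT value was 0.59 (0.30 to 0.88) and passed (adjusted p = 0.0092). It passed also without WT_CON_7605, KO_CON_7623 or KO_MR_7632, and in 4 of the 22 fits without 1 mouse in all. It passed too over all 24 mice (0.84, adjusted p = 0.021), with DESeq2 (0.83), limma (1.02), library size alone (0.95) or at least 10 counts in every mouse (0.81). It did not pass with DESeq2 size factors, with no filter on low counts or with only the groups compared (0.82, adjusted p = 0.18). With the clock score it was not called either, with or without the library labelled WT_CON_7607.

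The MR effects of the genotypes were compared by the interaction of genotype and diet. None of the 10 genes passed (6 of all genes did, 0.045%), and 1 gene of the 10, Ces1g, had an unadjusted p under 0.05, against 7.56% of all genes. DESeq2 also called none of the 10 and 35 of all genes. For Ces1g the MR effect was larger by 0.81 in NRF2 KO mice (0.02 to 1.60, adjusted p = 0.64). Without the library labelled WT_CON_7607 the interaction of Ces1g was 1.05 (0.66 to 1.44, adjusted p = 0.031) and was called, and 0.0893% of all genes were. With the clock score in addition it was 1.10 (adjusted p = 0.091). For the other 9 genes the interaction ran from -0.53 (Ces1f) to 0.20 (Ces1d), and all 9 intervals included 0. Without the library labelled WT_CON_7607 the interaction was -0.33 for Ces1f and 0.33 for Ces1d.

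**Figure D4:**
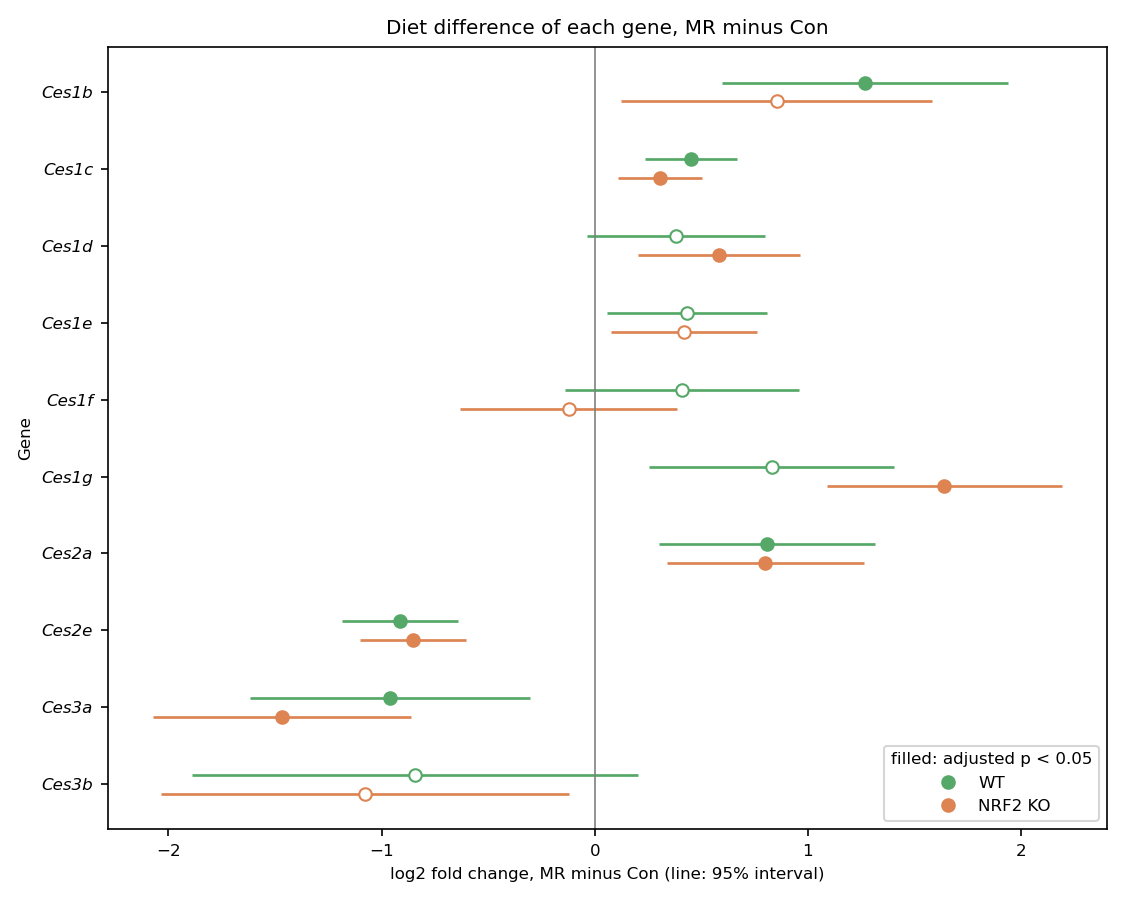
Log2 fold change of MR against Con for each gene in WT and in NRF2 KO mice, with 95% intervals; filled points have an adjusted p under 0.05. The Ces1 genes and Ces2a lie to the right of 0 apart from Ces1f in NRF2 KO mice (-0.12, or 0.025 with scaling by library size alone), and Ces2e, Ces3a and Ces3b lie to the left.

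Ces1b rose in WT mice by a log2 fold change of 1.27 (0.60 to 1.94, adjusted p = 0.013). Leaving out the library labelled WT_CON_7607 gave a rise of 1.00 (0.69 to 1.31, adjusted p = 1.7e-04). With that library kept, adding the clock score gave 1.26 and no call (adjusted p = 0.091). Fitting only the groups compared gave no call either (1.26, adjusted p = 0.12). With the clock score and without that library Ces1b was called in WT mice. In NRF2 KO mice, at a far lower level, Ces1b was 0.85 higher on MR (0.12 to 1.58, adjusted p = 0.12) with no overlap, and the difference was called without that library (adjusted p = 8.0e-04), with library size alone (1.01, adjusted p = 0.043) and with only the groups compared (0.85, adjusted p = 8.3e-04). Ces1c was 1.37-fold higher on MR in WT mice (log2 0.45, adjusted p = 0.0059), at 2361 to 2589 CPM against 1392 to 2230 CPM without overlap. In NRF2 KO mice it was 1.24-fold higher (log2 0.31, adjusted p = 0.037), and the groups overlapped between 2094 and 2122 CPM.

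Ces1d and Ces1e were higher on MR by similar amounts in both genotypes, with 1 call in 4 tests. Ces1d had log2 fold changes of 0.38 (-0.03 to 0.80, adjusted p = 0.22) in WT and 0.58 (0.20 to 0.96, adjusted p = 0.041) in NRF2 KO mice. Ces1e had 0.43 (adjusted p = 0.11) and 0.42 (adjusted p = 0.098), and was called in both with scaling by library size alone (0.55 and 0.57). In WT mice it was called also without WT_MR_7609 (0.55, adjusted p = 0.044). In NRF2 KO mice only the groups compared called it too (0.42, adjusted p = 0.030). So did the clock score without the library labelled WT_CON_7607 (0.47, adjusted p = 0.034). Ces1f did not pass in either genotype, with 0.41 (-0.14 to 0.96) in WT and -0.12 (-0.63 to 0.39) in NRF2 KO mice, which turned to 0.025 with scaling by library size alone. Without the library labelled WT_CON_7607 the WT value of Ces1f was 0.21 (-0.21 to 0.63). The calls of Ces1c and Ces1d in NRF2 KO mice held in 14 of the 22 fits without 1 mouse and were lost without KO_CON_7617, KO_CON_7618, KO_CON_7620, KO_CON_7621, KO_MR_7625, KO_MR_7628, KO_MR_7629 or KO_MR_7632. The adjusted p in the 22 fits rose to at most 0.085 for Ces1c and 0.090 for Ces1d. Over all 24 mice Ces1d was 0.59 (adjusted p = 0.089) in NRF2 KO mice and was not called.

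Ces2a, the most studied mouse relative of human CES2, rose on MR by a log2 fold change of 0.81 in WT (0.30 to 1.32, adjusted p = 0.032) and of 0.80 in NRF2 KO mice (0.34 to 1.26, adjusted p = 0.023). In WT MR it was uneven, with 89.0, 137, 221, 239 and 244 CPM, so that the lowest mouse lay inside the WT Con range of 71.7 to 135 CPM. The WT call was lost without WT_CON_7603, the library labelled WT_CON_7607, WT_MR_7611, WT_MR_7613 or WT_MR_7616 (adjusted p up to 0.082), and the NRF2 KO call without KO_CON_7621 (adjusted p = 0.051). The WT call was lost also with limma on the deposited normalized values (0.75, adjusted p = 0.053) and with only the groups compared (0.80, adjusted p = 0.11). Over all 24 mice neither was called (0.71, adjusted p = 0.095, and 0.81, adjusted p = 0.073).

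Ces3a and Ces3b, whose roles are little known, lay lower on MR in both genotypes and varied widely between mice. Ces3a in WT mice had 773, 829, 912, 1063 and 1343 CPM on Con and 263, 347, 529, 635 and 756 CPM on MR, which did not overlap. The log2 fold change was -0.96 (-1.62 to -0.30, adjusted p = 0.048), a call that sat at the threshold. It held in 3 of 22 fits without 1 mouse (without WT_MR_7613, KO_MR_7629 or KO_MR_7632) and was lost in the other 19, without the library labelled WT_CON_7607 among them (-1.01, adjusted p = 0.059), and over all 24 mice (-1.09, adjusted p = 0.066). Scaling by library size alone (-0.86, adjusted p = 0.052) and no filter on low counts (-0.96, adjusted p = 0.056) ended it too. With the clock score it was -0.56 (adjusted p = 0.44). In NRF2 KO mice Ces3a went from 972 to 1490 CPM (median 1301) to 182 to 836 CPM (median 413), without overlap, and fell by 1.47 (-2.07 to -0.86, adjusted p = 0.0028). That call was kept in all 22 fits without 1 mouse. Ces3b had -0.84 (-1.89 to 0.20, adjusted p = 0.29) in WT and -1.08 (-2.04 to -0.12, adjusted p = 0.13) in NRF2 KO mice, and its coefficient of variation between mice was 57.3 to 61.6% on MR. How reads were split between Ces3a and Ces3b was not tested.

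Of the 10 genes, 5 did not overlap between the diets in WT mice (Ces1b, Ces1c, Ces1g, Ces2e and Ces3a; 9.32% of all genes did not) and 4 did not in NRF2 KO mice (Ces1b, Ces1g, Ces2e and Ces3a; 5.45%). Markers of other cell types moved with MR in both genotypes. Of 4 bile duct markers, Krt7, Epcam and Sox9 fell in WT mice and Sox9 in NRF2 KO mice (-1.03), and the summed level of the 4 was 28.2 to 37.6 CPM in WT Con and 8.74 to 17.4 CPM in WT MR, 19.5 to 37.7 CPM in NRF2 KO Con and 12.05 to 18.1 CPM in NRF2 KO MR. Of 5 stellate cell markers 3 fell in WT (Lrat, Dcn and Colec11) and 2 in NRF2 KO mice (Lrat, -0.44, and Colec11, -0.32). Of 5 macrophage markers tested 2 fell in WT mice (Cd68 and Cd5l), of 5 endothelial markers 1 rose in NRF2 KO mice (Kdr, 0.24), and of 3 red blood cell markers 1 fell in both (Alas2, -0.91 and -1.16). Of 5 hepatocyte markers 1 fell (Apoa1, -0.64 in WT and -0.32 in NRF2 KO mice) and the others did not pass. The part of cell composition in the diet differences was not tested. Between genotypes none of the markers of these other cell types was called, and the hepatocyte marker Apoa1 was higher in NRF2 KO mice on MR (0.50, adjusted p = 0.0025).

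Within groups, when the group means were removed, 42 of the 45 pairs of carboxylesterases varied in the same direction from mouse to mouse. This number was 38 without the 2 mice farthest from the median and 33 without the library labelled WT_CON_7607. These values describe 22 mice and share library, depth and normalization. The same count over pairs of all genes was not taken, so they are not read as a trait of the family. The closest pair was Ces3a and Ces3b (Pearson's r = 0.901, Spearman's rho = 0.904), and r was 0.869 without the 2 mice farthest from the median of Ces3a. Of the 50-base stretches at the 3′ end of Ces3a, 25.9% also occur in Ces3b. The part of shared reads in this r was not tested. Ces2a and Ces3b came next (r = 0.834, rho = 0.790, and 0.800 without 2 mice), although Ces2a rose on MR and Ces3b did not pass the test. Ces1e and Ces1f gave r = 0.792 (rho = 0.780, and 0.709 without 2 mice). The value for Ces1b and Ces1g was r = 0.83 but rho = 0.465 and 0.429 without 2 mice, and it was 0.029 without the library labelled WT_CON_7607, so it rested on that library. Ces2e stood apart from Ces1b (r = -0.135) and Ces1g.

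**Figure D5:**
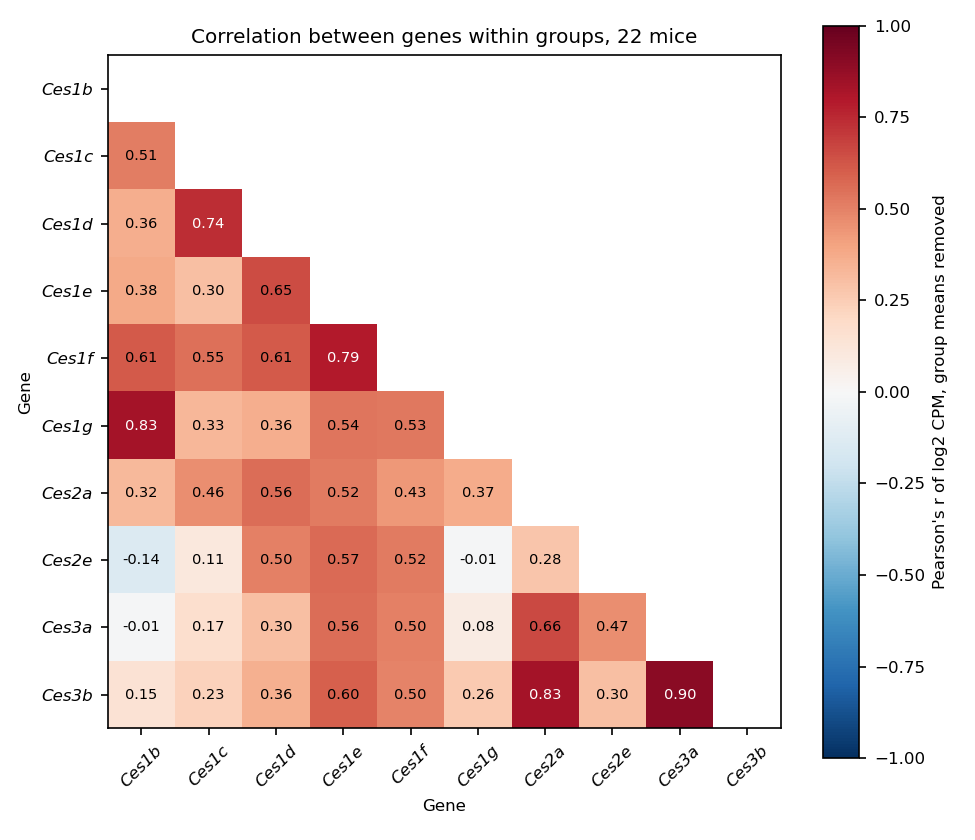
Pearson's r between carboxylesterases over 22 mice, from log2 CPM with the mean of each group removed, with the value printed in each cell. Values run from -0.135 (Ces1b and Ces2e) to 0.901 (Ces3a and Ces3b), with a median of 0.465, or 0.276 without the library labelled WT_CON_7607.

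Over all 22 mice without removing the group means, the 3 genes most like each carboxylesterase were taken from 11997 genes with at least 1 CPM on average. These values follow the groups as well as single mice and describe likeness only. Ces1b was most like Ugt2b35 (r = 0.975), Aox1 (0.971) and Gstm1 (0.969). Ces1g was most like Ces1b (0.934), Gstm1 (0.932) and Gstm4 (0.928), and Ces1f like Gclc (0.936), Hfe (0.930) and Ugt2b36 (0.928). Ces2e was most like Btc (0.899), Lgalsl (0.895) and Lgals3bp (0.894), but within groups these fell to 0.164, 0.372 and 0.252. Ces3a was most like Mup3 (0.981), Sult2a8 (0.966) and Mup21 (0.961), and Ces3b like Clec2h (0.952), Srd5a1 (0.946) and Mup12 (0.932), with 0.891 to 0.956 within groups. The Mup genes encode major urinary proteins and have near-identical copies, so their own counts are uncertain. Ces1d was nearest to Pak1ip1, Ipmk and Adssl1 (0.859 to 0.866), Ces1e to Pcbd2, Akr1c14 and Asgr2 (0.840 to 0.896), and Ces2a to Gfer, Ndufs7 and Akr1c13 (0.860 to 0.886).

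Other hydrolases and the factors known to act on carboxylesterase genes were read from lists. Of 11 further carboxylesterase genes on the list, 1 could be tested: Ces2g had 42.6 ± 7.87 CPM in WT Con, 51.0 ± 3.14 in WT MR (n = 5 each), 37.0 ± 1.93 in NRF2 KO Con and 41.3 ± 2.27 in NRF2 KO MR (n = 6 each) and was called in none of the 5 comparisons. Of 29 other ester and neutral lipid hydrolases and lipid droplet proteins tested, 5 rose and 2 fell on MR in WT mice, and 4 rose and 4 fell in NRF2 KO mice, where 13.8% and 12.6% of all genes were called. Among these, Pnpla2, the adipose triglyceride lipase, rose by 0.57 and 0.46, Plin5 rose by 0.64 and 0.67, and Plin2, a coat protein of lipid droplets, fell by 0.78 and 0.55. The epoxide hydrolase Ephx1 was called in all 4 comparisons of diet and genotype. It rose on MR by 1.42 in WT and by 0.93 in NRF2 KO mice and was lower in NRF2 KO mice by a log2 fold change of -1.26 on Con and -1.75 on MR (adjusted p = 2.2e-06). By genotype the other calls of the list were Ddhd2 (0.61 on Con) and Esd (-0.37 on MR).

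Of 19 receptors and factors, 1 rose on MR in WT mice (Ahr, 0.75), and in NRF2 KO mice 2 rose (Nr1i2, 0.35, and Atf4, 0.34) and 1 fell (Cebpa, -0.47), where 13.8% and 12.6% of all genes were called. By genotype, Nr1h4, the bile acid receptor FXR, was higher in NRF2 KO mice on Con (0.48, adjusted p = 0.0030), and the Nfe2l2 count was higher on Con (0.83) and on MR (1.177). The Con value of Nfe2l2 includes the library labelled WT_CON_7607, at 324 CPM against 106 to 125 CPM in the other WT Con mice. None of the 29 hydrolases and lipid droplet proteins and of the 19 factors was called for the interaction.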

How the data were processed

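Livers of 24 male mice gave 1 QuantSeq 3′ library each. The deposited count table holds whole reads per gene, which the authors aligned and counted with the pipeline of the kit's maker. A second deposited table holds a normalized signal, the count over a DESeq2 size factor, and served only in an alternative. The submitters' processing notes name R 3.4.3, DESeq2 1.18.1 and the builds GRCm38 and mm10. The labels give reads of 50 bp, and the methods of the study give a longer read. The 50-base stretches compared between transcripts follow the labels.

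Raw counts were tested in R 4.3.3 with edgeR 4.0.16 (TMM, filter by expression, robust quasi-likelihood F-tests, 1 mean per group, Benjamini-Hochberg adjustment over 13336 of 15160 genes, call under 0.05) on 22 mice, with the WT_CON_7604 and WT_MR_7612 mice left out as in the study. Depth was 6197291 to 22068338 counts per mouse; each mouse gave 1 library, so errors are the spread between mice. Levels are CPM on TMM-scaled libraries. Genes named are the 10 members, list genes that were called (at most 4 per list and comparison), every other tested carboxylesterase, and the 3 genes most correlated with each member (those of Ces1c are not reported here). The members, lists, rules and tests were chosen with earlier results of these data known. Symbols came with the deposited tables and positions from GENCODE M21 on GRCm38. Promoters are RefSeq, GRCm38.p6. Clock genes were listed after seeing the data.

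Alternatives were DESeq2 size factors, library size alone, no filter, at least 10 counts in every mouse, limma 3.58.1 on log2(signal + 1), DESeq2 1.42.0, only the groups compared, all 24 mice, each mouse left out, and, added later, a clock score. Tested on simulated data with 200 of 13197 genes changed 3-fold between genotypes, the model called 188 on each diet with 11 and 10 false calls. Figures used matplotlib 3.10.9.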

Additional observations from a re-analysis of the deposited data

Results flagged for a closer look

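Of 40 groups of values (10 genes in 4 groups), 3 had a single mouse far from the others by Dixon's test at 95%, and chance alone gives such a value in about 1 of 20 groups. In NRF2 KO MR mice, KO_MR_7632 had 207.6 CPM of Ces1e against 120.2 to 150.9 CPM in the other 5, and 95.1 CPM of Ces1f against 44.9 to 57.7 CPM. In WT Con mice, the library labelled WT_CON_7607 had 31.43 CPM of Ces1g against 130.1 to 160.7 CPM in the other 4.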

How the results depend on the processing

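The 4 genotype calls (Ces1b, Ces1f, Ces1g and Ces2e) kept direction and call on both diets under another size factor, no filter, at least 10 counts in every mouse, limma, DESeq2 and each mouse left out; the exceptions were Ces1f on Con with only the groups compared (-1.21), Ces2e on MR over all 24 mice (-0.52) and the fits with the clock score. Library size alone moved the median of all genes by 0.15 for MR in NRF2 KO and called 2785 genes (2397 higher, 388 lower) against 1677 (831 and 846); MR in WT then gave 1434 higher and 526 lower against 922 and 921, and genotype on Con 63 and 165 against 107 and 169, with Ces1f at 0.025 for MR in NRF2 KO and Ces1c at -0.012 for genotype on Con. Ces1c for genotype on Con was -0.0013 with DESeq2 size factors, -0.0027 with at least 10 counts and -0.0014 with DESeq2. DESeq2 called 451 genes for genotype on Con, 496 on MR and 35 for the interaction. With only the groups compared, 3 members were called for MR in WT, and 99 genes for genotype on Con and 600 on MR. Over all 24 mice the genotype values were 0.052 for Ces3b on Con, and on MR 0.0079 for Ces1d, 0.090 for Ces2a and 0.081 for Ces3a. With the clock score 1109 genes and 3 members were called for MR in WT, 10 genes and 0 members for genotype on Con, and 147 genes on MR. The genotype values were then 0.35 (Ces1d), 0.12 (Ces1e), 0.39 (Ces2a) and 0.66 (Ces3b) on Con, and 0.18 (Ces1d), 0.15 (Ces2a), 0.18 (Ces3a) and 0.13 (Ces3b) on MR, and the interaction of Ces1d was -0.17. Without the library labelled WT_CON_7607 as well, 778 genes and 3 members were called for MR in WT, 38 genes and 2 members for genotype on Con, and 0 genes for the interaction, with 0.17 (Ces1d), 0.26 (Ces2a) and 0.50 (Ces3b) on Con, 0.15 (Ces1d), 0.14 (Ces2a), 0.17 (Ces3a) and 0.12 (Ces3b) on MR, and an interaction of -0.011 for Ces1d. With 1 mouse left out, genotype on Con called 181 (without WT_CON_7603) to 314 genes, the interaction 3 genes (without WT_MR_7611, WT_MR_7616, KO_CON_7617, KO_CON_7618 or KO_MR_7625) to 12 (without WT_CON_7607; 10 or 11 without WT_CON_7605, WT_CON_7608, WT_MR_7613 or KO_MR_7632) and 0 to 1 members, MR in WT 3 (without WT_CON_7603, WT_MR_7611 or WT_MR_7616) to 6 members and MR in NRF2 KO 3 (without KO_CON_7621) to 7 members. The genotype values that changed sign were -0.076 to 0.085 for Ces1c, -0.20 to 0.0078 for Ces2a and -0.23 to 0.23 for Ces3b on Con, and -0.27 to 0.024 for Ces2a and -0.40 to 0.043 for Ces3a on MR. The cause of these changes was not tested. No paired analysis was possible because the groups share no replicate numbers. Depth limits Ces1b most, at 44 counts in its lowest library.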

Other observations

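The library labelled WT_CON_7607 split the 4 genes lower in NRF2 KO mice. Its Ces1b (4.98 CPM) fell among the NRF2 KO Con values (3.84 to 5.28 CPM), as did its Ces1f (55.2 against 42.5 to 79.8 CPM), and its Ces1g (31.4 CPM) lay between NRF2 KO Con and the other WT Con mice. Its Ces2e (142 CPM) and its clock score (-1.83) lay within the range of the other WT Con mice. The WT_CON_7604 and WT_MR_7612 mice, which were left out, had 46.8 and 98.3 CPM of Ces1b. WT_MR_7612 had the lowest Ces3a (73.6 CPM) and Ces3b (10.4 CPM) of all 24 mice.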
